A study of Homo sapiens with 31 samples.

Results

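Collagens are the structural proteins of the extracellular matrix, and the genes described here are the 43 members of the collagen family found by symbol (COL, a number, A, a number) among the 17113 genes of a count table. The family was read in 3 sets: 11 chains of fibrillar collagens, 6 chains of the type IV network of basement membranes, and 26 chains of other types, among them 10 fibril-associated, 5 type VI and 4 transmembrane collagens. The study measured RNA of 5 human cell lines by sequencing, alone and in mixtures of known make-up, to test how well a mixture can be taken apart by computation. LoVo, HT-29 and HCT 116 are labelled adenocarcinoma lines of the colon, LS1034 an adenocarcinoma line of the cecum, and CCD 841 CoN a normal colon line. All 5 are labelled wild type with no treatment, and each was sequenced unmixed in 3 libraries. Each cancer line was also mixed, as total RNA, into CCD 841 CoN RNA at 0.1, 1, 10 and 50%, with 1 library per mixture. That makes 15 unmixed libraries and 16 mixtures. The colon adenocarcinomas are 3 lines, but the cecum adenocarcinoma and the normal colon are 1 line each. Cancer status therefore cannot be told apart from what is particular to CCD 841 CoN, nor cecal origin from what is particular to LS1034. Whether a line's 3 libraries stem from 3 cultures or from 1 is not in the labels, so p-values measure the spread between these libraries, which may be technical.

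A collagen is built from chains that wind around each other into a helix, are modified and folded in the endoplasmic reticulum, secreted, trimmed and crosslinked. In the colon, fibroblasts and related mesenchymal cells of the lamina propria and submucosa make most of the fibrillar collagens (types I, III and V) and the type VI microfibrils, while the epithelium rests on a basement membrane whose core is a type IV network. Epithelial cells themselves carry a few collagens, best known among them the transmembrane chain encoded by COL17A1, which anchors epithelial cells to the basement membrane at hemidesmosomes.

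The 31 libraries held 9688765 to 56741879 counts, and levels are given as CPM, a gene's count scaled to a common library total. The labelled identities were checked with marker genes. Summed over 8 epithelial markers, the unmixed CCD 841 CoN libraries reached 239.6 to 314.9 CPM and the cancer libraries 3180.8 to 25320.1 CPM. Of these 8, 3 reached 1 CPM in each CCD 841 CoN library, while VIL1 and KRT20, markers of gut epithelium, had no count there. Summed over 7 fibroblast markers, CCD 841 CoN reached 9508.8 to 11020.6 CPM and the cancer libraries 1.90 to 13.8 CPM. Summed over 5 smooth muscle markers, CCD 841 CoN reached 2686.1 to 3159.2 CPM and the cancer libraries 2.715 to 15.3 CPM. Of these 5, 3 reached 1 CPM in each CCD 841 CoN library. By the calls defined below, 3 were lower in the mean of the cancer lines, 1 was higher and 1 was not called. CCD 841 CoN thus carried fibroblast markers and some of the smooth muscle and epithelial markers, and had no count of 2 of the epithelial ones. What part this cell type has in the collagen differences cannot be told apart from its normal label. HT-29 replicate 2 stood apart: 79 genes typical of HCT 116 were at 6.36% of their HCT 116 level in it. Genes typical of LoVo were at 2.04%, of CCD 841 CoN at 0.93% and of LS1034 at 0.839%. Every other unmixed library had at most 0.643% for any foreign line. Genes counted as typical had to stand under 0.2 CPM in the line's other libraries. For HCT 116, that left only 3 genes in HT-29 replicate 3, which gave the 0.643%, and 2 in replicate 1. COL4A4, COL12A1, COL4A5, COL13A1 and COL6A2, all high in HCT 116 among the cancer lines, stood at 6.31 to 15.97% of their HCT 116 level in HT-29 replicate 2. Calls that changed without this library are given below.

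CCD 841 CoN held nearly the whole of the collagen RNA. Collagen genes took 2.25, 2.48 and 2.60% of all counts in its 3 libraries, against 0.0103 to 0.0205% in LoVo, 0.0312 to 0.0397% in LS1034, 0.0220 to 0.0263% in HT-29 and 0.0200 to 0.0385% in HCT 116. The 5 ranges show CCD 841 CoN far above the 4 cancer lines, and LS1034 above LoVo and HT-29 without overlap. The fibrillar set summed to 19010.2 ± 1640.6 CPM in CCD 841 CoN (SD, n = 3) and to 9.59 ± 7.47 in LoVo, 105 ± 45.9 in LS1034, 20.6 ± 5.72 in HT-29 and 18.6 ± 7.69 in HCT 116. The type IV set summed to 1910.9 ± 133.1 CPM in CCD 841 CoN, 9.92 ± 3.56 in LoVo, 130.2 ± 19.4 in LS1034, 16.2 ± 2.23 in HT-29 and 26.6 ± 2.09 in HCT 116. The other types summed to 3506.6 ± 218.7 CPM in CCD 841 CoN and to 146 ± 50.5 in LoVo, 116 ± 22.5 in LS1034, 211 ± 28.1 in HT-29 and 256 ± 88.4 in HCT 116.

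**Figure D1:**
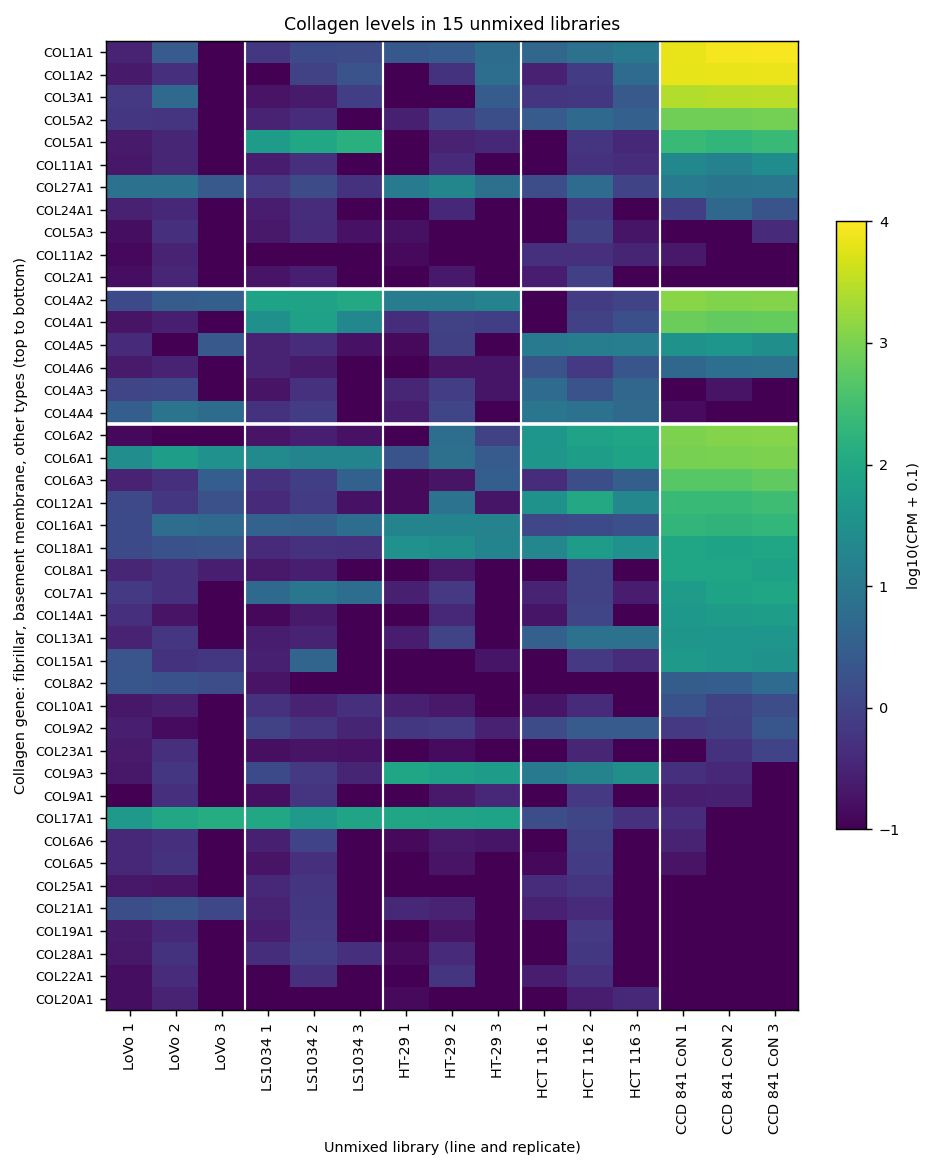
Levels of the 43 collagens (rows, in the 3 sets from top to bottom) in the 15 unmixed libraries (columns), as log10 of CPM plus 0.1. 23 rows stand at 1 CPM or more in each of the 3 CCD 841 CoN columns, most of them far lower in the cancer lines, while COL17A1, COL9A3, COL4A3 and COL4A4 show the opposite order in at least 1 cancer line.

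The first comparison asked which collagens differed between each cancer line and CCD 841 CoN. Of the 43 collagens, 32 passed the filter on low counts. A collagen could pass through CCD 841 CoN alone, so the counts that follow describe the 32 tested and not the family. A gene was called at an adjusted p under 0.05 and a log2 fold change of at least 1 in size. Against CCD 841 CoN, LoVo had 4 collagens called higher and 24 lower, where 48% of all 14452 tested genes were called (26.4% higher and 21.6% lower). LS1034 had 3 higher (COL17A1, COL21A1 and COL28A1) and 24 lower (47.1% of all genes, 25.7% higher and 21.4% lower), and the 3 fell to 1 without LS1034 replicate 1 or 2 or any 1 CCD 841 CoN library. HT-29 had 3 higher and 24 lower (45.7%, 24.7% and 20.9%), and 2 and 24 without its replicate 2. HCT 116 had 4 higher and 24 lower (46.7%, 25.4% and 21.2%). In each line the collagens called lower were the larger group, while among all genes calls were slightly more often higher. The 4 comparisons share the same CCD 841 CoN libraries and are not independent of each other.

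For the mean of the 4 cancer lines, 5 collagens were called higher and 26 lower, where 47.1% of all genes were called, 24.8% higher and 22.3% lower. The median log2 fold change of the 32 was -6.72, against 0.22 over all genes. It was -9.49 for the 8 fibrillar chains tested (0 higher, 8 lower), -5.44 for the 6 type IV chains (2 higher, 4 lower) and -6.21 for the 18 of other types (3 higher, 14 lower). The 5 called higher fell to 3 without CCD 841 CoN replicate 1 or 3, where COL4A3 (adjusted p = 0.112 and 0.0738) and COL21A1 (0.0864 and 0.0527) were lost, and to 4 without replicate 2 (COL21A1, 0.0575). Among those called lower, COL9A2 was lost with scaling by library size alone (0.0929), with the replicate block (0.0512), with no filter on low counts (0.0506) and without CCD 841 CoN replicate 2 or 3, LoVo replicate 2, LS1034 replicate 3, HT-29 replicate 3 or HCT 116 replicate 1 (0.0511 to 0.385). COL28A1 was the only tested collagen not called here. The 11 collagens that did not pass the filter were COL2A1, COL5A3, COL6A5, COL6A6, COL9A1, COL11A2, COL19A1, COL20A1, COL22A1, COL23A1 and COL25A1. None of them reached a mean of 1 CPM in any line. COL23A1, a transmembrane chain, stood at 0, 0.429 and 0.929 CPM in CCD 841 CoN.

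**Figure D2:**
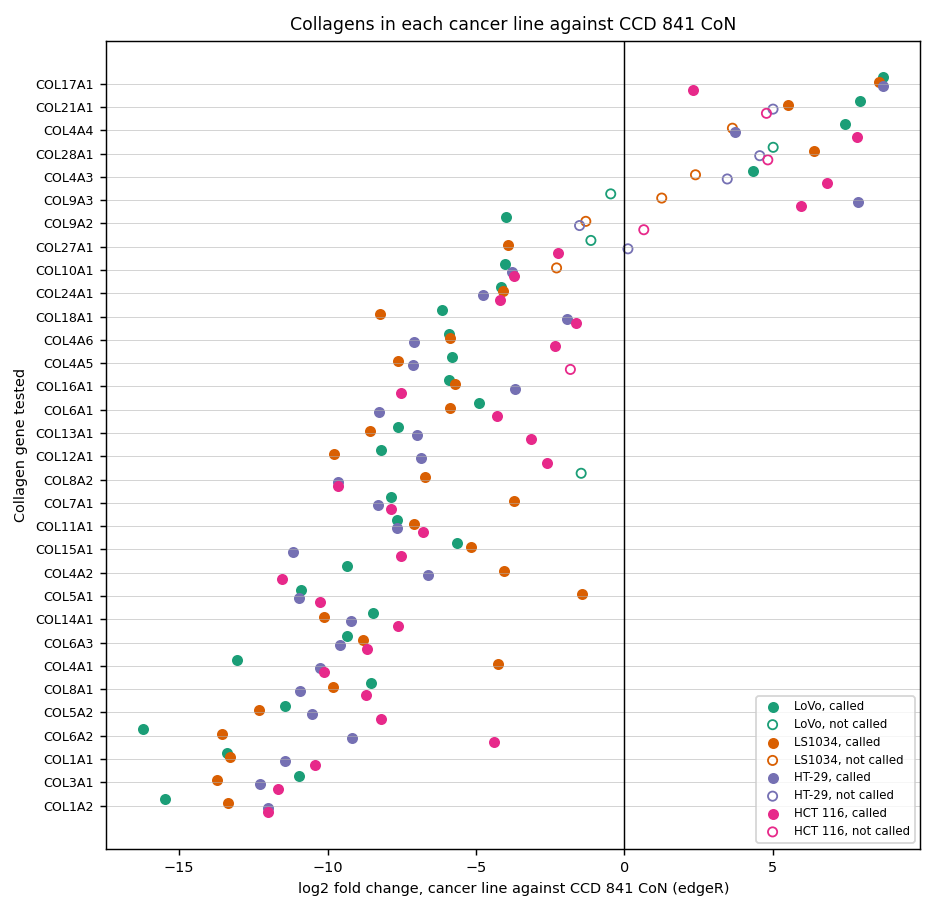
Log2 fold change (x axis) of each of the 32 tested collagens (y axis, in order of the fold change) in each cancer line against CCD 841 CoN, 1 colour per line, filled where called and open where not. COL1A2, COL3A1 and COL1A1 lie among the lowest, LS1034's COL5A1 stands apart from the other lines at -1.42, and the points above 2 belong to COL17A1, COL9A3, COL4A3, COL4A4, COL21A1 and COL28A1.

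Among the fibrillar chains, COL1A1 and COL1A2 encode the chains of type I collagen, the main fibre of connective tissue. COL1A1 stood at 6758, 8680 and 9065 CPM in CCD 841 CoN. In the cancer libraries it stood at 0.214, 2.62 and 0 CPM in LoVo, 0.555, 1.25 and 1.27 in LS1034, 2.26, 2.77 and 5.74 in HT-29, and 4.45, 7.28 and 10.6 in HCT 116. No cancer library came near CCD 841 CoN, and the HCT 116 libraries lay above those of LoVo and LS1034. The ratio of mean CPM, CCD 841 CoN over the line, ran from 1098 in HCT 116 to 8662 in LoVo (mean of the 4 lines, log2 fold change -12.13 ± 0.55 SE, edgeR's quasi-likelihood test, adjusted p = 2.09e-11). HCT 116 was above the mean of the other 3 cancer lines by 2.29 ± 0.53 on the log2 scale (adjusted p = 0.0028).

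COL1A2 stood at 6645, 6811 and 7037 CPM in CCD 841 CoN and rested on 14 counts in the 3 LoVo libraries, 45 in LS1034, 78 in HT-29 and 137 in HCT 116. The log2 fold change for the mean of the lines was -13.20 ± 0.98 (adjusted p = 7.71e-09). Per kilobase of transcript, the 2 type I chains were nearly level in CCD 841 CoN, with a COL1A1 to COL1A2 ratio of 0.960 ± 0.123 (SD, n = 3). In HCT 116 that ratio was 10.2 ± 9.11, from 1.56 to 19.7 in its 3 libraries, so COL1A1 exceeded COL1A2 in each of them by unequal factors. COL3A1, the chain of type III collagen that forms fine reticular fibres, stood at 2666, 2929 and 3093 CPM in CCD 841 CoN and at no more than 5.03 CPM in any cancer library (-12.15 ± 0.89, adjusted p = 5.97e-09).

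A trace of fibrillar RNA differed between replicates of the cancer lines. COL1A2 reached 6.20 CPM in HT-29 replicate 3 against 0 and 0.441 in replicates 1 and 2, and 5.46 CPM in HCT 116 replicate 3 against 0.182 and 0.631. COL6A3 stood at 3.03, 3.51, 3.06 and 3.19 CPM in the replicate 3 libraries of LoVo, LS1034, HT-29 and HCT 116, and at no more than 1.50 CPM in replicates 1 and 2. Summed over COL1A1, COL1A2 and COL3A1, the cancer libraries held 0 to 0.103% of the CCD 841 CoN level. The fibroblast markers other than VIM summed to 0.00131 to 0.128% of their CCD 841 CoN level. The number of the 43 collagens with any count was 25 to 42 in the replicate 1 libraries of the cancer lines (28732096 to 37418506 counts), 36 to 42 in their replicate 2 libraries (20604908 to 24936733 counts) and 14 to 28 in their replicate 3 libraries (10800329 to 21616437 counts). The part of depth and of such traces in the lowest collagen levels was not tested.

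COL5A1 and COL5A2 encode the chains of type V collagen, which sits inside type I fibrils and sets their width. COL5A1 stood at 243, 199.5 and 234 CPM in CCD 841 CoN and at 59.1, 95.8 and 148 CPM in LS1034. In the 9 libraries of the other 3 cancer lines it did not pass 0.485 CPM. The LS1034 libraries lay below those of CCD 841 CoN without overlap and far above those of the other cancer lines. LS1034 held 44.8% of the CCD 841 CoN mean (log2 fold change -1.42 ± 0.54, adjusted p = 0.0372), and this call was lost without any 1 of the CCD 841 CoN libraries or without LS1034 replicate 1 or 2 (adjusted p 0.0636 to 0.125), and with scaling by library size alone (0.0834). Against the mean of the other 3 cancer lines the difference was 9.28 ± 0.51 on the log2 scale (adjusted p = 2.35e-09).

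COL5A2, the partner chain, did not share that level. It stood at 838, 841 and 890 CPM in CCD 841 CoN and at 0.204, 0.333 and 0 CPM in LS1034, and its highest cancer values were 2.66, 5.05 and 3.24 CPM in HCT 116. The per-kilobase ratio of COL5A2 to COL5A1 was 4.57 ± 0.457 in CCD 841 CoN and 0.00277 ± 0.00240 in LS1034 (SD, n = 3 each). HCT 116 exceeded the mean of the other cancer lines in COL5A2 by 3.21 ± 0.45 on the log2 scale (adjusted p = 3.86e-05). The type V pair was thus split between lines, COL5A1 in LS1034 and, at a far lower level, COL5A2 in HCT 116.

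The other fibrillar chains were lower. COL11A1, a chain of type XI collagen best known from cartilage, stood at 21.1, 15.6 and 27.25 CPM in CCD 841 CoN and at no more than 0.437 CPM in any cancer library. COL24A1 stood at 0.731, 4.80 and 1.86 CPM in CCD 841 CoN and at no more than 0.534 CPM in the cancer libraries. It was called lower in each line, a call lost in all 4 without CCD 841 CoN replicate 2 (adjusted p 0.0851 to 0.13). Each line's call was also lost without its own replicate 1 or 3 (0.064 to 0.1), and that of LoVo without its replicate 2 (0.0583). COL27A1, a fibrillar chain of developing cartilage and some epithelia, lay nearest to its CCD 841 CoN level. It stood at 10.96, 8.83 and 9.19 CPM there and at 11.5, 19.6 and 6.94 CPM in HT-29, which overlap (log2 fold change 0.12 ± 0.60, adjusted p = 0.884). LoVo held 7.11, 7.24 and 2.39 CPM (-1.12 ± 0.61, adjusted p = 0.133), called lower with the replicate block (-1.30, adjusted p = 0.0294) and with only the groups compared in the fit (-1.21, adjusted p = 0.0449). HCT 116 held 1.42, 5.58 and 0.972 CPM, and LS1034 0.584, 1.29 and 0.448 CPM. HT-29 stood above the mean of the other 3 cancer lines by 2.54 ± 0.46 on the log2 scale (adjusted p = 0.000489).

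The type IV genes lie head to head in pairs, and the sequences between the starts are shown because both genes of a pair share them while the lines used the pairs very differently. The sequences are from RefSeq, build GRCh38.p14, 250 bases before to 50 after a gene's start. The counts were made on hg19, and no coordinate was converted. The COL4A1 window is chr13:110307108-110307407 on the minus strand and the COL4A2 window chr13:110307034-110307333 on the plus strand. Their starts are 127 bases apart and the windows share 226 bases. The COL4A4 window is chr2:227164156-227164455 on the minus strand and the COL4A3 window chr2:227164374-227164673 on the plus strand, with starts 419 bases apart and 82 shared bases. Capitals mark every match to 3 motifs, searched on both strands. They are CCAAT, which reads ATTGG on the other strand, further GGGCGG, which reads CCGCCC there, and finally TATAAA.
COL4A1: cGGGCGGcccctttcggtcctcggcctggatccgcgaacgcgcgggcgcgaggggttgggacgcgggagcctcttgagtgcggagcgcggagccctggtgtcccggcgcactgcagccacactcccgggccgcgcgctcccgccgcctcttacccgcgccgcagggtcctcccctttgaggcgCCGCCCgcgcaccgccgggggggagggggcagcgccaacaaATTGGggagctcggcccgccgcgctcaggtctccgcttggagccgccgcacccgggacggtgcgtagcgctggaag
COL4A2: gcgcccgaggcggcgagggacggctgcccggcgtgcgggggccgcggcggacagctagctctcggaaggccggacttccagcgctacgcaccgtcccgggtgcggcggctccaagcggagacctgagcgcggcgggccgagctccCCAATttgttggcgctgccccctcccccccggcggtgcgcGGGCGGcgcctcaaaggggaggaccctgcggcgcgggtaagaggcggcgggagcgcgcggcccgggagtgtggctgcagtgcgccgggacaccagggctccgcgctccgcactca
COL4A4: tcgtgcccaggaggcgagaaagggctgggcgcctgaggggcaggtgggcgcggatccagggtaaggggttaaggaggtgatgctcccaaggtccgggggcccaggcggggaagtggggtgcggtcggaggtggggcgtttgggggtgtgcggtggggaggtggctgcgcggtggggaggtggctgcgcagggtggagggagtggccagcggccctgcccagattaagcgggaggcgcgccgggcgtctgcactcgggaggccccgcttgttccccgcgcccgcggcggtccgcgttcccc
COL4A3: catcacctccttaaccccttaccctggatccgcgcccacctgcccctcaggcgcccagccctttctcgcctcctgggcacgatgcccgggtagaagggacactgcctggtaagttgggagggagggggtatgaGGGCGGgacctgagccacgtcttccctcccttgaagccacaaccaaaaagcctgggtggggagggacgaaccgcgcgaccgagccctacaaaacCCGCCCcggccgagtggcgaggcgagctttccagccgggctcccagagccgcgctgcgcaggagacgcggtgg
The COL4A1 window is 76.7% G and C and holds 1 CCAAT and 2 GGGCGG. The COL4A2 window (77.7%) holds 1 of each, and that CCAAT lies in the shared stretch. The COL4A3 window (67.7%) holds 2 GGGCGG, and the COL4A4 window (74%) holds none of the 3 motifs. Of all 35097 promoter windows of this length in the same table, 34.6% held CCAAT, 44.95% GGGCGG and 11.53% TATAAA, and of the 43 windows found for 31 collagens, 32.6, 55.8 and 18.6% did. A match describes the letters only.

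COL4A1 and COL4A2 encode the chains of the type IV network found in nearly every basement membrane. COL4A1 stood at 704, 622 and 660 CPM in CCD 841 CoN, at 32.7, 72.8 and 21.4 CPM in LS1034, and at no more than 1.53 CPM in the other 9 cancer libraries. COL4A2 stood at 1314, 1130 and 1175 CPM in CCD 841 CoN, at 79.9, 77.0 and 104 CPM in LS1034, 13.05, 13.1 and 17.3 in HT-29, 1.23, 2.82 and 3.19 in LoVo, and 0, 0.631 and 0.972 in HCT 116. The 5 lines separated without overlap for COL4A2, in the order CCD 841 CoN, LS1034, HT-29, LoVo, HCT 116. Against CCD 841 CoN, the log2 fold change of LS1034 was -4.27 ± 0.69 for COL4A1 (adjusted p = 7.54e-05) and -4.06 ± 0.57 for COL4A2 (adjusted p = 2.02e-05). LS1034 was above the mean of the other cancer lines by 6.87 ± 0.54 and 5.11 ± 0.40 (adjusted p = 8.94e-08 and 1e-07). HT-29 exceeded the mean of the other lines in COL4A2 alone of this pair (1.69 ± 0.41, adjusted p = 0.00531, against -1.12 ± 0.76 for COL4A1, adjusted p = 0.291). Per kilobase, the COL4A2 to COL4A1 ratio was 1.85 ± 0.0436 in CCD 841 CoN, 2.85 ± 1.97 in LS1034 and 25.7 ± 11.7 in HT-29. With the union of all exons as length in place of the principal transcript, these ratios were 1.06, 1.62 and 14.7, so which chain of the pair is the higher in CCD 841 CoN depends on the transcript used, while HT-29 had the highest of the 3 ratios by either length. LoVo replicate 3 and HCT 116 replicate 1 had no COL4A1 count, and no ratio was computed for these 2 lines.

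COL4A3 and COL4A4, chains of the network in kidney and other specialised basement membranes, went the other way. COL4A4 stood at 3.15, 8.37 and 5.66 CPM in LoVo and 8.96, 7.33 and 5.37 CPM in HCT 116, against 1 count in all 3 CCD 841 CoN libraries. LoVo and HCT 116 overlapped each other and lay above the other 3 lines, where no library passed 1.003 CPM. The ratio to CCD 841 CoN was 244 in LoVo and 344 in HCT 116, with counting intervals of 43.55 to 9663 and 61.5 to 13615, and the log2 fold changes were 7.45 ± 1.38 and 7.84 ± 1.38 (adjusted p = 0.000282 and 0.000198). HT-29 was also called higher (3.73 ± 1.50, adjusted p = 0.0474), on 0.139, 1.003 and 0 CPM, a call lost without its replicate 2 (adjusted p = 0.455), without any 1 CCD 841 CoN library (0.0863 to 0.118) and with the replicate block (0.0601). COL4A3 stood at 5.45, 1.84 and 4.35 CPM in HCT 116 and 0.989, 1.09 and 0 CPM in LoVo, also against 1 CCD 841 CoN count. Both were called higher than CCD 841 CoN (6.84 ± 1.58 and 4.35 ± 1.61), the call in LoVo being lost without LoVo replicate 1 or 2 or CCD 841 CoN replicate 1 or 3 (adjusted p 0.0742 to 0.128). HCT 116 was above the mean of the other 3 cancer lines in COL4A3 by 3.43 ± 0.77 on the log2 scale (adjusted p = 0.00242), and in COL4A4 by 2.89 ± 0.64 (adjusted p = 0.00202).

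COL4A5 and COL4A6 form the last type IV pair, on the X chromosome. COL4A5 stood at 35.5, 41.4 and 31.1 CPM in CCD 841 CoN and at 11.3, 13.0 and 13.8 CPM in HCT 116, while the other 9 cancer libraries stood at 2.39 CPM or less. The HCT 116 libraries lay below CCD 841 CoN, but the difference did not pass the test (-1.81 ± 0.90, adjusted p = 0.101). With only the groups compared in the fit it was called lower (-1.88, adjusted p = 0.000216). HCT 116 stood above the mean of the other cancer lines by 5.04 ± 0.72 (adjusted p = 4.85e-05). COL4A6 stood at 4.83, 6.52 and 7.22 CPM in CCD 841 CoN and 1.79, 0.582 and 2.08 CPM in HCT 116. HCT 116 exceeded the mean of the other 3 lines in 4 of the 6 type IV chains (COL4A3, COL4A4, COL4A5 and COL4A6) and was below it in COL4A2.

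COL17A1, the hemidesmosome chain, had a log2 fold change of 7.09 ± 0.69 for the mean of the cancer lines, the largest of the 5 collagens called higher (adjusted p = 1.91e-07). Its promoter window, chr10:104085831-104086130 on the minus strand, is shown beside the type IV windows because COL17A1 was high where most collagens were low.
COL17A1: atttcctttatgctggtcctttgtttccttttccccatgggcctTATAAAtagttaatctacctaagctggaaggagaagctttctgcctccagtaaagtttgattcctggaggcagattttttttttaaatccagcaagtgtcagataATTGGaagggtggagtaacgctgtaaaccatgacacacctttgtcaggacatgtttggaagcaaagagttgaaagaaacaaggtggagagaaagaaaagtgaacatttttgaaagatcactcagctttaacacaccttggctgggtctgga
Capitals again mark the motif matches: 1 TATAAA and 1 ATTGG, the reverse of CCAAT, with no GGGCGG and a G and C content of 40.7%. COL17A1 stood at 47.6, 94.0 and 126 CPM in LoVo, 98.6, 50.2 and 82.6 in LS1034, 89.2, 81.5 and 79.5 in HT-29, 1.51, 1.02 and 0.416 in HCT 116 and 0.325, 0 and 0 in CCD 841 CoN. LoVo, LS1034 and HT-29 overlapped each other at the top, HCT 116 lay far below them, and CCD 841 CoN lay lowest with 8 counts, all in replicate 1. The ratio to CCD 841 CoN was 823 in LoVo, 713 in LS1034 and 771 in HT-29 (log2 fold changes 8.74, 8.60 and 8.73, each with an SE of 0.74, adjusted p = 8.99e-08, 8.97e-08 and 8.2e-08). HCT 116 was called at 2.31 ± 0.76 (adjusted p = 0.0175), a call lost without CCD 841 CoN replicate 2 or 3 or without HCT 116 replicate 1 (adjusted p = 0.0608, 0.0548 and 0.0921). Against the mean of the other cancer lines HCT 116 had a log2 fold change of -6.38 ± 0.59 (adjusted p = 5.97e-07). COL13A1, the other transmembrane chain that passed the filter, was highest in CCD 841 CoN. It stood at 43.8, 42.4 and 42.4 CPM in CCD 841 CoN, 3.36, 7.09 and 7.63 in HCT 116 and at most 0.962, in HT-29 replicate 2, in the other cancer libraries (HCT 116 against the mean of the other lines, 4.57 ± 0.56, adjusted p = 1.04e-05).

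**Figure D3:**
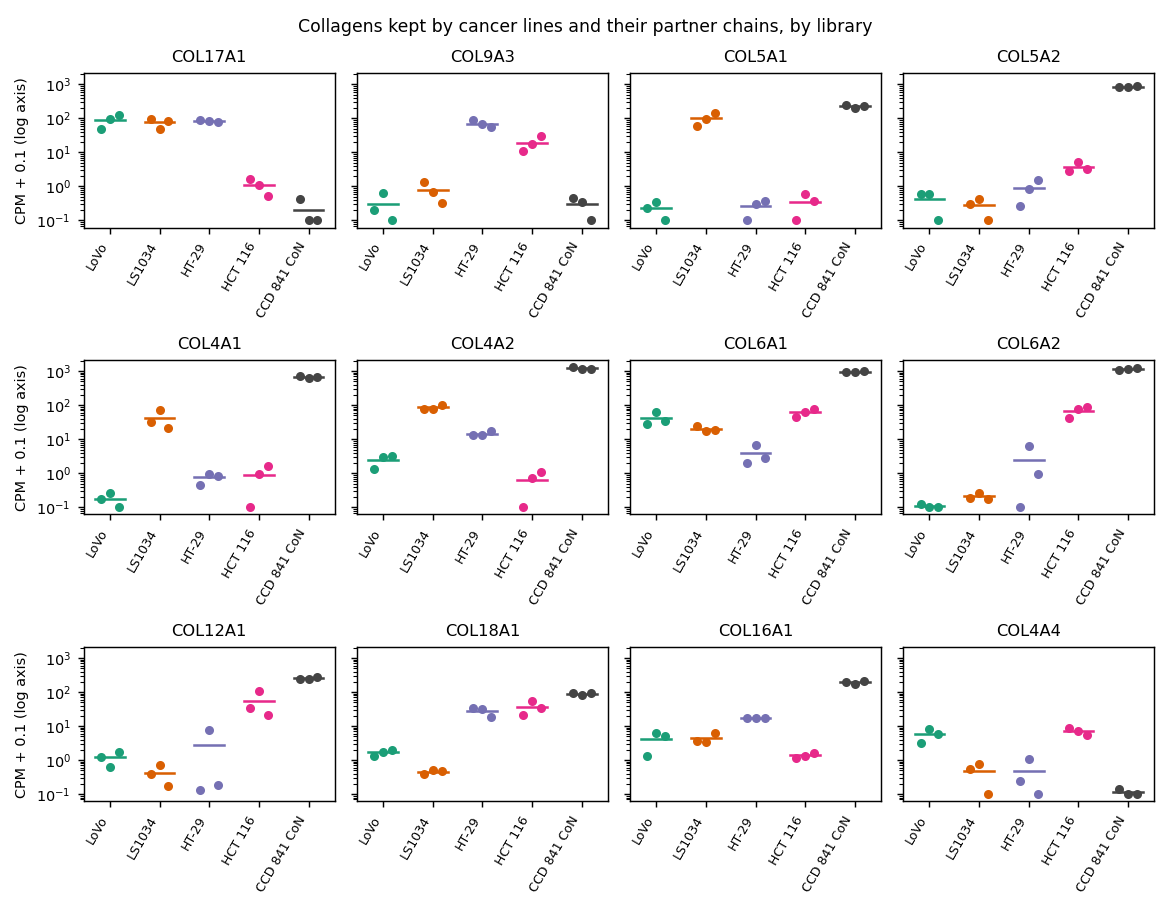
CPM plus 0.1 on a log axis for 12 collagens in each of the 15 unmixed libraries, 1 point per library and a line at each group's mean. COL17A1 is high in LoVo, LS1034 and HT-29, COL9A3 in HT-29 and HCT 116, and COL5A1 and COL4A1 in LS1034 among the cancer lines, while COL6A2 and COL12A1 are highest in HCT 116 among them.

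The fibril-associated collagens sit on the surface of fibrils and have interrupted helices. COL9A3, a chain of type IX collagen of cartilage, was the one with the highest level per kilobase in a cancer line. It stood at 86.6, 67.4 and 56.2 CPM in HT-29, 10.7, 17.1 and 29.8 in HCT 116, and at no more than 1.23 CPM in LoVo, LS1034 and CCD 841 CoN. HT-29 and HCT 116 did not overlap each other or the other 3 lines. Against CCD 841 CoN the ratios were 338 and 92.5 (log2 fold changes 7.89 ± 0.85 and 5.96 ± 0.80, adjusted p = 1.08e-06 and 1.49e-05). The partner chain COL9A2 reached only 1.27, 2.67 and 2.64 CPM in HCT 116, and COL9A1 did not pass the filter.

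COL16A1, another fibril-associated chain, was 1 of 2 collagens at 1 CPM or more in every unmixed library. It stood at 193, 177 and 205 CPM in CCD 841 CoN and at 17.7, 17.7 and 17.2 in HT-29, 3.68, 3.37 and 6.27 in LS1034, 1.26, 6.12 and 5.10 in LoVo, and 1.06, 1.21 and 1.57 in HCT 116. HT-29 lay above the other cancer lines without overlap (2.69 ± 0.30 against their mean, adjusted p = 5.51e-06). COL12A1, whose product links fibrils to the surrounding matrix, stood at 240, 245.5 and 285.5 CPM in CCD 841 CoN and 35.1, 106 and 20.7 CPM in HCT 116. In the other cancer lines it did not pass 1.67 CPM except for 7.82 CPM in HT-29 replicate 2. HCT 116 was above the mean of the others by 5.67 ± 0.74 (adjusted p = 2.06e-05). Against CCD 841 CoN it had -2.60 ± 0.96 (adjusted p = 0.0323), a call lost with DESeq2 (0.0634), with scaling by library size alone (0.0629), without any 1 CCD 841 CoN library and without HCT 116 replicate 1 or 3 (0.0564 to 0.0978). HT-29 against the mean of the others changed from 0.02 to -5.56 without its replicate 2 (adjusted p = 0.000927). COL14A1, a fibril-associated chain of mature connective tissue, stood at 46.5, 56.4 and 63.4 CPM in CCD 841 CoN and at no more than 1.02 CPM in any cancer library. COL21A1 had no count in CCD 841 CoN and stood at 1.47, 1.85 and 1.12 CPM in LoVo, at least 23.6-fold higher at 3 counts over the group, and LoVo exceeded the mean of the other lines by 2.86 ± 0.80 (adjusted p = 0.016), a call lost without LoVo replicate 1 or 2 (0.0653 and 0.0581) and with DESeq2 (0.0625). In LS1034 it stood at 0.204, 0.541 and 0 CPM, at least 4.28-fold higher than CCD 841 CoN (adjusted p = 0.0456). That call was lost without LS1034 replicate 1 or 2 (0.0683 and 0.143), without any 1 CCD 841 CoN library (0.0853 to 0.131), with DESeq2 (0.0861) or its size factors (0.0521), and with no filter on low counts (0.0513).

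Type VI collagen forms beaded microfibrils around cells from a chain each of COL6A1, COL6A2 and another gene, usually COL6A3. COL6A1 stood at 942, 975 and 1011 CPM in CCD 841 CoN, 44.3, 64.1 and 78.2 in HCT 116, 27.8, 63.4 and 34.4 in LoVo, 24.5, 17.6 and 17.99 in LS1034, and 1.88, 6.78 and 2.69 in HT-29. HCT 116 and LoVo overlapped, and LS1034 and HT-29 each lay apart below them. With COL16A1 it was the other collagen at 1 CPM or more in every unmixed library. HCT 116 was above the mean of the other cancer lines by 2.06 ± 0.28 (adjusted p = 2.89e-05). HT-29 had -3.24 ± 0.38 in the same contrast (adjusted p = 7.87e-06), and LoVo 1.24 ± 0.29 (adjusted p = 0.0038), lost without LoVo replicate 2 (0.0553).

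COL6A2 stood at 1047, 1184 and 1230 CPM in CCD 841 CoN and 43.1, 74.7 and 88.2 CPM in HCT 116, and rested on 1 count in LoVo and 8 counts in LS1034. HT-29 had 0, 6.22 and 0.833 CPM, the middle value in replicate 2. HCT 116 was above the mean of the others by 8.59 ± 0.73 (adjusted p = 2.59e-07). Per kilobase the COL6A1 to COL6A2 ratio was 0.754 ± 0.0740 in HCT 116 and 0.693 ± 0.0366 in CCD 841 CoN, while in LS1034 it was 171 ± 74.7. COL6A3 stood at 496, 513 and 598 CPM in CCD 841 CoN and did not pass 3.51 CPM in any cancer library. HCT 116 thus held COL6A1 and COL6A2 near the ratio of CCD 841 CoN, at 6.37 and 5.96% of its levels, with a COL6A1 to COL6A3 ratio of 169 ± 147 against 4.64 ± 0.304.

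The remaining classes are the multiplexins, the anchoring fibril chain and the short chain networks. COL18A1, a basement membrane proteoglycan whose end fragment is endostatin, stood at 91.9, 80.9 and 91.7 CPM in CCD 841 CoN, 33.9, 30.9 and 18.2 in HT-29, 21.0, 54.7 and 33.1 in HCT 116, and at most 1.91 in LoVo and 0.416 in LS1034. HT-29 and HCT 116 overlapped between CCD 841 CoN and the other 2 lines (log2 fold change against CCD 841 CoN, -1.92 ± 0.33 in HT-29 and -1.62 ± 0.32 in HCT 116, adjusted p = 0.000129 and 0.000578). COL15A1, the other multiplexin, stood at 48.0, 42.4 and 36.1 CPM in CCD 841 CoN, and the highest cancer values were 4.12 CPM in LS1034 replicate 2 and 1.95 in LoVo replicate 1. LS1034 was called above the mean of the other cancer lines (2.95 ± 1.00, adjusted p = 0.0326), and without its replicate 2 the difference was -0.60 (adjusted p = 0.823). COL7A1, the anchoring fibril chain that ties basement membranes to the matrix, stood at 55.8, 78.1 and 88.0 CPM in CCD 841 CoN, 5.08, 8.995 and 6.42 CPM in LS1034 and at most 0.874 in the other cancer libraries (LS1034 against the mean of the others, 4.29 ± 0.49, adjusted p = 5.28e-06). COL8A1, a short chain network collagen of vessel walls, stood at 87.6, 87.7 and 74.1 CPM in CCD 841 CoN and at most 0.825 CPM in the cancer lines. COL8A2, its partner, stood at 2.92, 3.001 and 5.47 CPM in CCD 841 CoN, 2.03, 1.69 and 1.44 CPM in LoVo, and had 3 counts in LS1034 and none in HT-29 and HCT 116. COL10A1, a short chain of growth cartilage, stood at 1.71, 0.857 and 1.45 CPM in CCD 841 CoN and at most 0.409 CPM in the unmixed cancer libraries. COL28A1 had no count in CCD 841 CoN and stood at 0.350, 0.708 and 0.373 CPM in LS1034 (at least 7.27-fold, adjusted p = 0.047), a call lost without any 1 library of either line (0.0687 to 0.128) and with DESeq2 (0.116).

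Counted by a fixed level, a collagen at 1 CPM or more in each of a line's 3 libraries was taken as kept by that line. LoVo kept 9 of the 43, LS1034 7, HT-29 8 and HCT 116 13, where CCD 841 CoN had 23. Over all 17113 genes the share at that level was 65.7% in LoVo, 64.7% in LS1034, 64.2% in HT-29, 65.5% in HCT 116 and 64.9% in CCD 841 CoN. The collagens thus stood at 16.3 to 30.2% in the cancer lines and 53.5% in CCD 841 CoN, below the share of all genes in every line. At least 1 cancer line kept 21 collagens, exactly 1 line kept 12, and all 4 lines kept COL6A1 and COL16A1. At a level of 5 CPM, LoVo kept 2 (COL6A1 and COL17A1), LS1034 and HT-29 kept 6 each and HCT 116 kept 7, where CCD 841 CoN had 21. For the counts across lines and at 5 CPM, the share over all genes was not computed, so they describe the collagens only.

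The cancer lines were also compared among themselves, each against the mean of the other 3, in contrasts that hold no CCD 841 CoN library. LoVo had 5 collagens called higher and 7 lower (21.5% of all genes called, 12.9% higher and 8.6% lower). LS1034 had 6 higher and 7 lower (24.7%, 13.8% and 10.9%), HT-29 6 higher and 4 lower (23.1%, 13.1% and 9.99%), and HCT 116 13 higher and 4 lower (27%, 14.6% and 12.4%). The 13 collagens in which HCT 116 was above the other lines were COL1A1, COL5A2, COL4A3, COL4A4, COL4A5, COL4A6, COL6A1, COL6A2, COL9A2, COL9A3, COL12A1, COL13A1 and COL18A1. Leaving out HT-29 replicate 2 gave 12 calls for LoVo, 9 for LS1034 (5 higher, 4 lower), 12 for HT-29 (6 and 6) and 16 for HCT 116 (13 and 3). In LS1034 the calls of COL12A1, COL13A1, COL4A4 and COL15A1 were lost that way (adjusted p = 0.104, 0.0621, 0.0597 and 0.0586). In HT-29, COL12A1, COL4A5 and COL7A1 were called lower that way (-5.56, -5.39 and -3.02, adjusted p = 0.000927, 0.0171 and 0.0255) and COL15A1 was lost (0.133), as was COL5A1 in HCT 116 (0.0705). The 7 lower calls of LS1034 became 3 without its replicate 1 or 3, where COL4A4, COL5A2, COL12A1 and COL13A1 were lost (0.059 to 0.0856). The 5 higher calls of LoVo became 2 without its replicate 2, the 4 lower calls of HT-29 became 2 without its replicate 1, and the 4 lower calls of HCT 116 became 7 without its replicate 2.

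Genes that make, trim, crosslink and bind collagen were read beside the chains. Of 21 genes of chain modification and folding, all tested, 0 were called higher and 15 lower in the mean of the cancer lines (median log2 fold change -2.44, against 0.22 over all genes and 47.1% called). P3H2, a prolyl 3-hydroxylase, stood at 1238 ± 120 CPM in CCD 841 CoN (SD, n = 3) and 51.9 ± 82.2 CPM in the 12 cancer libraries (-7.79 ± 0.28). PLOD2, a lysyl hydroxylase, stood at 580.3 ± 52.1 against 57.2 ± 61.9 CPM (-4.37), and P4HA3, FKBP10, P3H1 and P3H3 were also lower (-5.64, -4.28, -3.94 and -4.83). For P3H2 and PLOD2 the SD of the cancer libraries exceeded their mean, so these libraries differed widely. Here and below, the fold change averages the lines on the log scale and is not the ratio of the means shown.

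Of 14 genes of propeptide cleavage and crosslinking, 2 were called higher and 10 lower (median -3.72). The crosslinking oxidases LOXL2 and LOX fell from 1548 ± 230.4 and 1282 ± 89.9 CPM in CCD 841 CoN to 5.28 ± 8.65 and 1.07 ± 0.978 CPM (log2 fold changes -10.64 ± 0.41 and -10.63 ± 0.55), and ADAMTS2, PCOLCE, LOXL1 and ADAMTS3 were lower too (-9.20, -6.52, -4.95 and -4.34). PCOLCE2, an enhancer of procollagen cleavage, had no count in CCD 841 CoN and stood at 26.95 ± 4.34 CPM in LoVo, 24.4 ± 17.7 in LS1034, 5.54 ± 1.77 in HT-29 and 9.43 ± 1.52 in HCT 116 (adjusted p = 2.44e-07). TLL1, a procollagen protease, had 1 count in CCD 841 CoN and stood at 12.4 ± 4.29 CPM in LoVo and 20.7 ± 7.55 in LS1034. Its log2 fold change for the mean of all 4 cancer lines was 5.68 ± 1.48 (adjusted p = 0.00368). Of 11 collagen receptors, 8 were tested, 1 was called higher and 7 lower (median -3.96). ITGA11, MRC2, DDR2, ITGA1, ITGB1 and ITGA10 were lower (-10.04, -8.77, -7.87, -5.21, -2.71 and -2.01). DDR1, the collagen receptor kinase of epithelia, was higher, from 7.09 ± 1.37 CPM in CCD 841 CoN to between 38.7 and 52.0 CPM in the 4 lines (2.29 ± 0.28, adjusted p = 2.95e-06).

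In the mixtures the question was how the collagens moved as cancer RNA replaced CCD 841 CoN RNA. Each percentage was compared with the 0.1% mixtures over the 4 cancer lines, with the line as a block and a call at the adjusted p alone, since dilution shrinks the differences. Of the 43 collagens, 28 passed the filter among the mixtures. At 50%, 2 were called higher and 22 lower, where 53.7% of all 13508 genes were called (30.1% higher and 23.6% lower). At 10%, 2 were higher and 7 lower, where 7.54% of all genes were called (6.28% higher and 1.27% lower). The 10% count fell to 1 without the LS1034 mixtures, 2 without those of HCT 116 and 6 without those of LoVo or HT-29, and to 2 with scaling by library size alone, where 97.2% of all calls were higher in place of 83.2%. At 1%, 0 were called by edgeR or by DESeq2, 2 had an unadjusted p under 0.05, and 0.918% of all genes were called. The same 0.1% mixtures enter all 3 comparisons.

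COL1A1 stood at 7205, 6960, 7032 and 7143 CPM in the 0.1% mixtures with LoVo, LS1034, HT-29 and HCT 116, at 6825, 7047, 7444 and 6818 at 1%, 6283, 6161, 6078 and 6345 at 10%, and 3989, 3723, 2928 and 3475 at 50%. The 0.1% and 1% mixtures overlapped, and those of 10% and of 50% lay apart below them. The log2 fold change was -1.13 ± 0.06 at 50% (adjusted p = 9.57e-09) and -0.24 ± 0.06 at 10% (adjusted p = 0.0361). COL6A1 fell by 1.14 ± 0.05 at 50% and COL4A1 by 1.21 ± 0.07. The 7 chains called lower at 10% were COL1A1, COL1A2, COL3A1, COL4A1, COL5A2, COL6A1 and COL6A2, with log2 fold changes of -0.23 to -0.28. COL5A1 at 50% stood at 137 CPM with LoVo, 211 with LS1034, 93.6 with HT-29 and 114 with HCT 116, so the mixture with the line that keeps COL5A1 was the highest of the 4, with 1 library each and no test. Weighting the unmixed means by the labelled percentages gives 163 CPM for that LS1034 mixture, and the measured level was 1.29 times this. COL27A1 at 50% stood at 11.8, 4.53, 3.18 and 6.72 CPM with LoVo, LS1034, HT-29 and HCT 116. The same weighting gives 7.62, 5.22, 11.2 and 6.16 CPM. The level with HT-29, on 174 counts, lay below every unmixed library of HT-29 and CCD 841 CoN.

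COL17A1 and COL9A3 were the 2 collagens called higher. COL17A1 stood at 0, 0.822, 0.0459 and 0 CPM at 0.1% (LoVo, LS1034, HT-29 and HCT 116), 2.17, 0.257, 3.45 and 0 at 1%, 7.61, 10.1, 9.17 and 0.518 at 10% and 65.8, 48.6, 35.5 and 0.692 at 50%. From 1% on, its level was higher at each larger percentage for LoVo, LS1034 and HT-29, which keep it, and stayed under 1 CPM with HCT 116. The log2 fold change was 7.53 ± 1.00 at 50% (adjusted p = 2.67e-05) and 5.33 ± 0.98 at 10% (adjusted p = 0.00339). COL9A3 stood at 28.3 CPM with HT-29 and 15.7 with HCT 116 at 50%, and at 7.45 and 5.31 at 10%, against at most 0.225 CPM with LoVo and LS1034 at either percentage (6.20 ± 1.08 and 4.68 ± 1.07, adjusted p = 0.000282 and 0.0149). The 10% call of COL9A3 was lost without the LS1034 or the HT-29 mixtures (0.051 and 0.145) and without the line as a block (0.295). The 10% call of COL17A1 was also lost without that block (0.1). COL4A4, kept by LoVo and HCT 116, reached 0.723 and 3.19 CPM at 50% with them, on 15 and 46 counts. Weighting the unmixed means by the labelled percentages gives 2.87 and 3.62 CPM, so the level with LoVo was far below this.

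**Figure D4:**
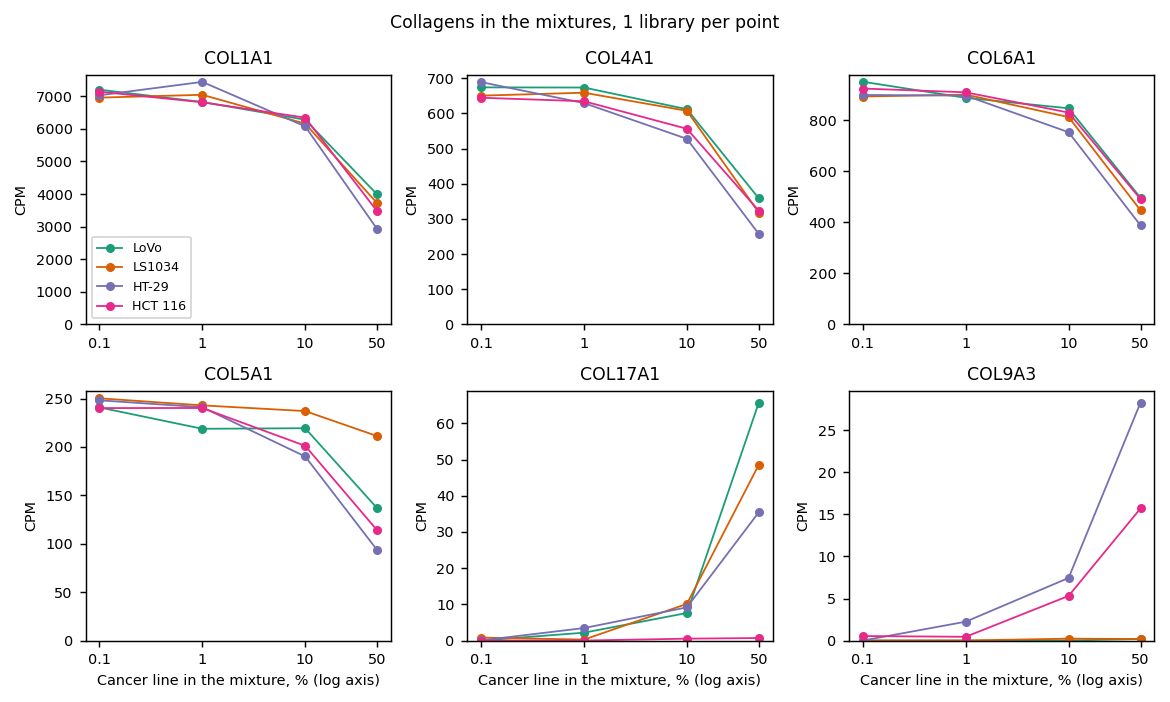
CPM (linear axis from 0) of 6 collagens against the labelled percentage of cancer RNA (log axis), 1 colour per cancer line and 1 library per point. COL1A1, COL4A1 and COL6A1 lie lowest at 50%, COL5A1 stays highest at 50% with LS1034, COL17A1 reaches 35.5 to 65.8 CPM with the 3 lines that keep it, and COL9A3 28.3 and 15.7 CPM with HT-29 and HCT 116.

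The CCD 841 CoN share of each mixture was read from collagens. Those used stood at 10 CPM or more in CCD 841 CoN and at least 10 times their level in the cancer line. Each share was the mixture CPM minus the cancer line mean, divided by the CCD 841 CoN mean minus the cancer line mean. The median over these collagens was taken for each mixture. The median over the 4 mixtures was 98.1% (97.0 to 101.1) in the 0.1% mixtures, 94.7% (92.5 to 96.2) in the 1% mixtures, 86.4% (81.8 to 87.3) in the 10% mixtures and 47.8% (38.8 to 55.6) in the 50% mixtures. All genes that meet the same criteria gave 96.0, 94.9, 85.3 and 46.2%. At 50% the collagens read 55.6% with LoVo, 46.2% with LS1034, 38.8% with HT-29 and 49.3% with HCT 116. Single collagens spread more widely than these medians, in the 50% mixtures from 26.6% (with HT-29) to 67.7% (with LoVo). Over all percentages they ran from 26.6 to 133.4%, the highest in the 0.1% mixture with HT-29. Total counts include genes of both sources, so these shares depend on how library size is scaled.

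**Figure D5:**
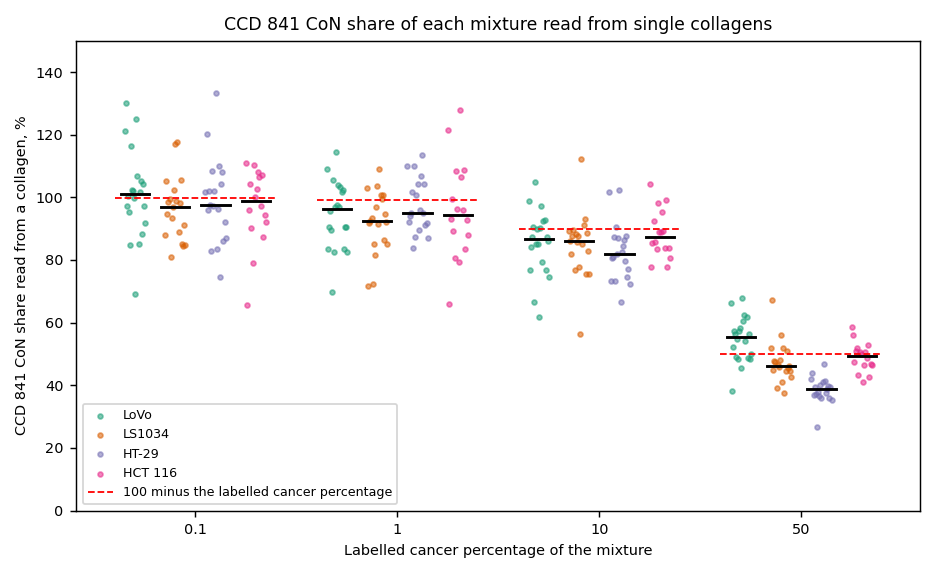
Share of CCD 841 CoN RNA (%) read from each qualifying collagen (points) in each of the 16 mixtures, with the median as a black bar and 100 minus the labelled cancer percentage as a dashed red line. The 50% mixtures show the widest gap between lines, 38.8% with HT-29 to 55.6% with LoVo.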

How the data were processed

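The deposited file is the authors' table of counts per protein-coding gene in 31 libraries. The submitters' processing notes name hg19, STAR for the alignment and featureCounts for the counting (versions not given in the sources used here). Per the labels, the libraries were stranded and depleted of ribosomal RNA. COL26A1 is not analysed here. CPM divides a gene's count by the library total. The test was the quasi-likelihood F test of edgeR 4.0.16 after filterByExpr and TMM scaling, in R 4.3.3, with p-values adjusted by Benjamini-Hochberg over all tested genes. The 15 unmixed libraries were fitted together, the 16 mixtures separately with the line as a block. The SE is the log2 fold change divided by the square root of the F statistic. Calls used 0.05 and, for unmixed lines, a log2 fold change of 1. Counting intervals are at 95% and, like the floor of 3 counts, cover counting error only. Chain ratios used GENCODE principal transcript lengths.

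Collagens were named where they reached 10 CPM in a line, were kept by a cancer line or were called higher than in CCD 841 CoN, and up to 6 genes per list by size of change, plus those called the other way. The members, lists and tests were chosen with earlier results of these data known. DESeq2 1.42.0, other scalings and filters, a replicate block and left-out libraries were alternatives. Replicate numbers paired the cancer lines (residual correlation 0.144 to 0.47 in 18 pairs of equal number) but not with CCD 841 CoN (-0.0342 to 0.0232 in 12 pairs). The pipeline was tested on simulated counts. Figures used Python 3.11.15 and matplotlib 3.10.9.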

Additional observations from a re-analysis of the deposited data

Results flagged for a closer look

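Within each group of 4 mixtures of the same percentage, 92 groups were examined, at 4 percentages for each collagen with a mean of at least 10 CPM in an unmixed line, and 6 held 1 mixture set apart from the other 3. Chance gives about 1 in 20, and 6 of 92 is close to that. The rate takes the 4 mixtures as alike, though each holds a different cancer line. COL1A2 stood at 6836 CPM in the 0.1% mixture with HCT 116, where the others held 6964 to 6986, and at 6893 CPM in the 1% mixture with HT-29, where the others held 6585 to 6617. COL14A1 stood at 25.4 CPM in the 50% mixture with LoVo (others 22.7 to 22.9), and COL5A1 at 219 CPM in the 1% mixture with LoVo (others 240.3 to 243). COL17A1 stood at 0.822 CPM in the 0.1% mixture with LS1034 (others 0 to 0.0459), and COL9A3 at 0.535 CPM in the 0.1% mixture with HCT 116, with no count in the other 3.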

How the results depend on the processing

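Of the summary results, 257 values under an alternative kept their direction and size class, 13 moved, 1 became stronger and 4 weaker. Over all collagens and comparisons, the alternatives other than one added after seeing the data gave 4983 single values with the same call, 48 gained calls, 149 lost calls and 3 changes of direction. The 3 were COL15A1 in LS1034 (2.95 to -0.60 without its replicate 2), COL12A1 in HT-29 (0.02 to -5.56 without its replicate 2) and COL8A1 in HCT 116 (1.05 to -4.35 without its replicate 2), each against the mean of the other cancer lines. The 9 collagens called in the 10% mixtures became 2 with scaling by library size alone and 4 without the line as a block, and between 1 and 6 when 1 cancer line was left out, the lowest without the LS1034 mixtures. The 0 at 1% became 0 to 1 that way, with COL17A1 called without the LS1034 mixtures. The CCD 841 CoN share read from collagens became 83.8% at 10% and 40.2% at 50% with TMM library sizes, and 100.4% at 0.1% and 97.7% at 1% with the 0.1% mixtures as the reference. Leaving out 1 CCD 841 CoN library gave 97.4 to 101.0% at 0.1%, 93.25 to 97.0% at 1% and 85.1 to 89.1% at 10%, the highest each without replicate 3. Kept collagens at 5 CPM numbered 2 in LoVo and 7 in HCT 116. With TMM library sizes the class sums became 21473 (fibrillar), 2158.5 (type IV) and 3960.9 CPM (other types) in CCD 841 CoN, and 22.98 CPM for type IV in HCT 116. Library size alone raised the median log2 fold change of all genes in the unmixed comparisons from between 0.21 and 0.24 to between 0.45 and 0.56, and the share of calls that were higher from 55.1 to 65.2% in LoVo, from 54.5 to 64.9% in HCT 116 and from 83.2 to 97.2% in the 10% mixtures. The replicate block gave 29 collagens in LoVo, 28 in LS1034, 26 in HT-29, 28 in HCT 116 and 30 in the mean comparison, and 13, 15, 11 and 17 in the contrasts among cancer lines. With only the cancer lines in the fit, an alternative chosen after seeing the data, the block gave 12, 13, 10 and 17. DESeq2 gave no adjusted p for COL1A2 and COL6A2 in the unmixed lines. Collagens under about 1 CPM rest on few counts, and the mixtures have 1 library each.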
